A study of Mus musculus with 24 samples.

Results

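The collagen genes of quiescent and proliferating mouse mammary tumour cells were compared within tumours. Members of the family were the genes whose symbol consists of Col, a type number, the letter a and a chain number. All 44 such genes were in each count table, among 24978 genes for 4T07 and 49038 each for D2A1 and EMT6. The 3 mammary carcinoma lines carried mCherry and an mVenus-p27K reporter, where p27K derives from p27, an inhibitor of the cell cycle, and its fusion protein builds up in resting cells. Balb/cJ females had 250000 cells of a line placed in a mammary fat pad, and day 14 was the time of tumour collection. The groups of each line were the p27K high gate (quiescent cells) and the p27K negative gate (proliferating cells) of the same 4 tumours, which gave 24 libraries from 12 tumours. No other treatment or genotype is named in the labels, and all groups share the reporter and the host strain. Sorting used DAPI and an antibody to CD45, which marks blood cells; the sources used here do not give the gate settings.

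Collagens are secreted proteins in which chains wind into a triple helix, often with different chains in 1 molecule. Fibrillar collagens such as types I, III and V form the banded fibrils of connective tissue, type IV forms the mesh of basement membranes, and type VI forms beaded filaments around cells. FACIT collagens, which carry interrupted helices, sit on the surface of fibrils. In breast tumours collagen is laid down mainly by fibroblasts, but carcinoma cells make it too.

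Libraries held 27887221 to 45460880 counts in 4T07 and 13769682 to 20142013 in EMT6. The D2A1 totals ran from 6727594 to 20174767 for p27K high cells. For p27K negative cells they were 1335433, 2110563 and 1802042 in tumours 1 to 3 and 15641189 in tumour 4. A few libraries stood apart. The p27K high library of 4T07 tumour 2 detected 13500 genes, against 15094 or more in the other 4T07 libraries, and the p27K negative library of D2A1 tumour 1 had 80.7 CPM of the epithelial cadherin gene Cdh1 against at most 1.66 CPM in the other D2A1 p27K negative libraries. The p27K high library of EMT6 tumour 0 was the highest of its gate for 3 network and filament collagens, given below. CPM are counts relative to library size, scaled by the trimmed mean of M-values (TMM). The keratin genes Krt8 and Krt18 were at means of 69.1 CPM or more in 4T07 and EMT6, and in D2A1 Krt18 was at 129.3 CPM in the p27K high gate and 111.8 CPM in the p27K negative gate. Krt8 in D2A1 was lower, at 7.96 and 58.9 CPM, and Krt5 was below 0.5 CPM in every library. Each line was sequenced in its own run, so line and run cannot be told apart.

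The promoters of 5 collagen genes that changed between the D2A1 gates are shown, because these genes moved in opposite directions there. They were chosen after their values were seen, among the members described in full whose RefSeq promoter (GRCm38.p6) has 1 start and no annotated exon in the 150 bases before it. Col3a1 and Col15a1 fell strongly, Col23a1 fell slightly, and Col5a1 and Col27a1 rose in p27K high cells. Capitals mark the first match, on either strand, to TATAAA or GGGCGG.
Col3a1, chr1:45311388-45311537, plus strand: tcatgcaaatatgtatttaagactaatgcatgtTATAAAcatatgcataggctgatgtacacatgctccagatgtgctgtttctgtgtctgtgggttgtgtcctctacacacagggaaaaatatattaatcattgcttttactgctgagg
Col15a1, chr4:47207862-47208011, plus strand: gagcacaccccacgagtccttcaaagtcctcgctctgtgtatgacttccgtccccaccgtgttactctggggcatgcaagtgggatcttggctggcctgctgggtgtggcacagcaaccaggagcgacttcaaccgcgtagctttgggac
Col23a1, chr11:51289770-51289919, plus strand: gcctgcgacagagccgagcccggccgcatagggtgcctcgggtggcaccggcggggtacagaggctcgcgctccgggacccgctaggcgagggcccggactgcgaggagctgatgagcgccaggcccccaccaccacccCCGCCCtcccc
Col5a1, chr2:27886275-27886424, plus strand: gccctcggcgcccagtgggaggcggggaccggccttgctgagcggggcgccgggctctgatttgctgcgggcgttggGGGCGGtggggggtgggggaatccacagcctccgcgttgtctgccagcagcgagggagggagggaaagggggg
Col27a1, chr4:63215262-63215411, plus strand: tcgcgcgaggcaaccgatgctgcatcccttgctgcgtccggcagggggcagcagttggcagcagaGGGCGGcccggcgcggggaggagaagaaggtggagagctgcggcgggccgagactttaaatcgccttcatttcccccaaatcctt

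The Col3a1 window was the one with TATAAA, the letters of a TATA box, and had 37.3% G and C. That match lies nearer to the upstream end of the window than to the start, so it is not shown to be a working TATA box. GGGCGG, the GC box, stood in the windows of Col5a1 (74.7% G and C), Col27a1 (65.3%) and Col23a1 (76.7%), of which the first 2 rose and the last fell. Col15a1 (59.3%) held neither, and CCAAT on either strand was in none of the 5. Of 32851 mouse promoters of this length, 7.57% held TATAAA, 28.6% GGGCGG and 24.5% CCAAT, and their median was 54% G and C. These matches describe letters only.

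Collagen genes were called in both directions in each line. A gene was called when its edgeR quasi-likelihood test, with the tumour as a block, gave a Benjamini-Hochberg adjusted p under 0.05 over all genes tested. In 4T07, 31 members passed the filter on low counts, of which 6 rose and 6 fell in p27K high cells, against 22.1% and 23.6% of all genes tested. In D2A1, 28 were tested, 9 rose and 6 fell, against a background of 14.9% and 14.7%. In EMT6, 25 were tested, 13 rose and 1 fell, against 24.1% and 25.1%. In either direction, 45.7%, 29.5% and 49.2% of all genes were called in 4T07, D2A1 and EMT6. The 12 of 31 members called in 4T07 are below that background, so their number is no result about the family there. The share of tested members that rose was 19.4%, 32.1% and 52%, and the median change of the tested members was -0.01 in 4T07, 0.23 in D2A1 and 0.47 in EMT6, where that of all genes tested was at most 0.02 from 0. A change is the log2 ratio of the p27K high to the p27K negative level within tumours, given with the standard error of the fit (n = 4 tumours per line).

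**Figure D1:**
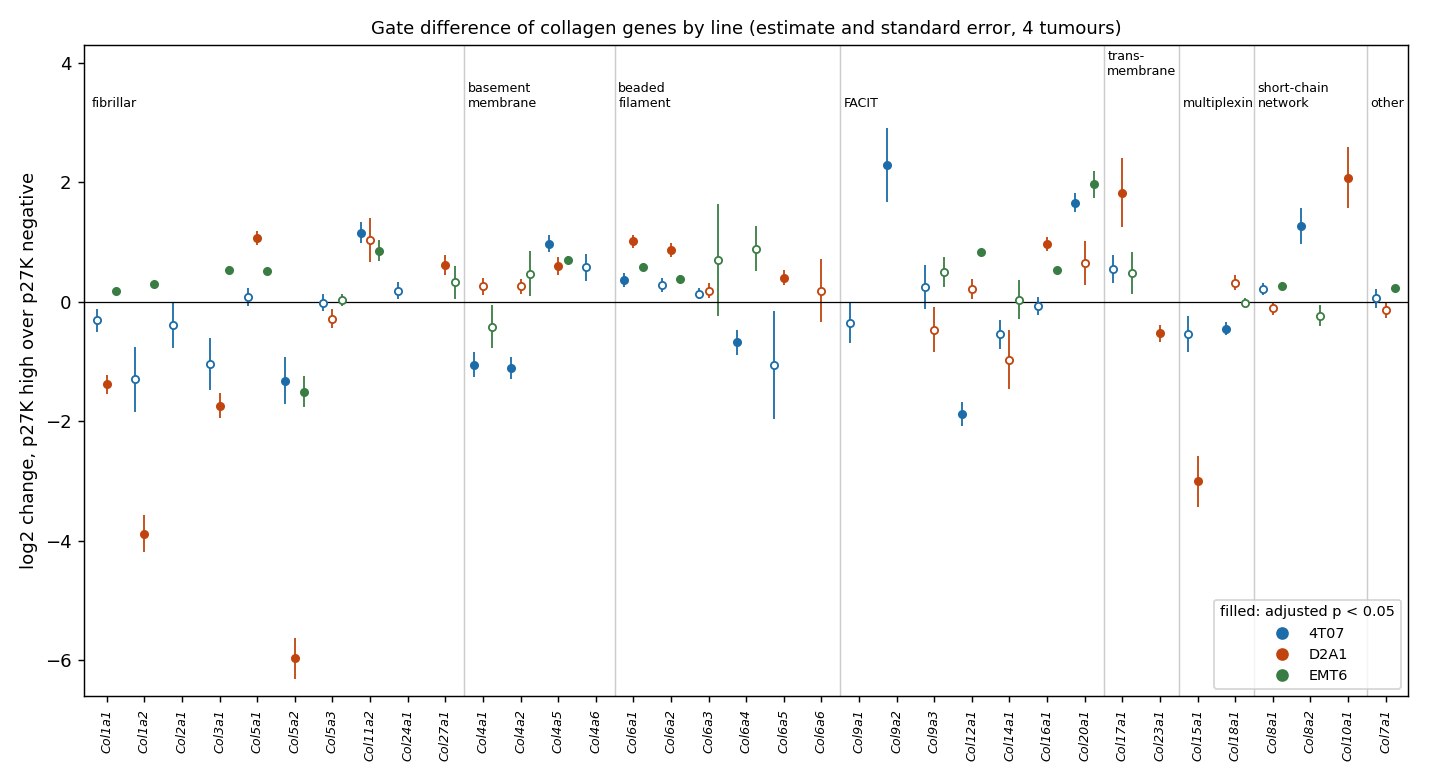
Change of each tested collagen gene between the gates (y axis, log2 of p27K high over p27K negative; points are estimates from 4 tumours, bars are standard errors), ordered by class on the x axis and coloured by line. Filled points passed the test; the D2A1 points of Col1a2 (-3.88) and Col5a2 (-5.97) lie lowest, and those of Col6a1 are above 0 in all 3 lines.

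Of the 22 members tested in all 3 lines, Col4a5 and Col6a1 rose in each line and Col5a2 fell in each. Col1a1, Col1a2 and Col3a1 were called with opposite sign in D2A1 and EMT6. The shares of all genes called in every line, or with opposite sign, were not worked out. The numbers of such members are thus no result about the family. The counts in 4T07 depended on tumour 2, whose p27K high library detected the fewest genes. Without that tumour 11 members rose and 9 fell, without tumour 1, 3 rose and 3 fell, and without tumour 4, 3 rose and 4 fell. In D2A1, leaving out tumour 1 left 5 that rose and 5 that fell.

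The major fibril collagens moved in opposite directions in D2A1 and EMT6. Col1a1 and Col1a2 encode the chains of collagen I, the main collagen of connective tissue. In D2A1, Col1a2 (chromosome 6, 4504814 to 4541544, plus strand, GRCm38) stood at 6.36, 25.6, 7.56 and 3.63 CPM in the p27K high libraries of tumours 1 to 4. The p27K negative libraries held 130.3, 142.3, 122.6 and 111.7 CPM. The gates were far apart in each of the 4 tumours, the deeply sequenced tumour 4 included. Its change was -3.88 ± 0.31 (edgeR adjusted p = 6.63e-07), a 14.8-fold lower level. In EMT6 the same gene was at 4806, 4645, 4111 and 5500 CPM in the p27K high libraries and at 3984, 3878, 3300 and 4314 CPM in the p27K negative ones of tumours 0, 1, 2 and 4. It was higher in the p27K high library of every EMT6 tumour, although the ranges of the gates overlapped. That rise was 0.30 ± 0.04 (edgeR adjusted p = 9.97e-05). The 4T07 levels were low, at 0.603, 5.35, 8.55 and 4.53 CPM against 6.80, 3.34, 22.1 and 11.7 CPM. Tumour 2 was the exception to the lower p27K high level there. With all 4 tumours the 4T07 change was -1.30 ± 0.54 (edgeR adjusted p = 0.0869), and without tumour 2 it was -1.81 (edgeR adjusted p = 0.0004).

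Col1a1 (chromosome 11, 94936224 to 94953042, plus strand) had the same directions with smaller sizes. In D2A1 it was at 83.2, 66.4, 89.3 and 39.8 CPM in p27K high cells and 194.0, 122.7, 224.2 and 165.3 CPM in p27K negative cells. All p27K high libraries were below all p27K negative ones, by -1.38 ± 0.16 (edgeR adjusted p = 3.27e-05). In EMT6 the p27K high libraries held 1238, 1536, 1313 and 1833 CPM and the p27K negative ones 1124, 1390, 1096 and 1611 CPM. Each EMT6 tumour was higher in its p27K high library by a small step, and the change was 0.18 ± 0.04 (edgeR adjusted p = 0.00382). The 4T07 libraries held 12.3, 15.8, 24.3 and 31.3 CPM in the p27K high gate and 19.3, 11.2, 41.1 and 38.8 CPM in the p27K negative gate. The 4T07 change of -0.32 ± 0.20 did not pass (edgeR adjusted p = 0.234), and without tumour 2 it was -0.56 (edgeR adjusted p = 0.000562). The chains of collagen I were unequal by gate in D2A1: per kilobase of exon, Col1a1 was 4.92 to 24.8 times the level of Col1a2 in p27K high libraries and 1.63 to 3.46 times in p27K negative ones. In EMT6 that ratio lay between 0.488 and 0.707 in all 8 libraries.

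Col3a1 (chromosome 1, 45311538 to 45349706, plus strand), whose product co-assembles with collagen I in soft tissue, followed the collagen I genes. Its D2A1 levels were 43.3, 29.6, 49.2 and 19.9 CPM in the p27K high gate and 115.5, 68.6, 137.5 and 133.7 CPM in the p27K negative gate. These gates did not overlap, and the change was -1.74 ± 0.21 (edgeR adjusted p = 4.2e-05). In EMT6, levels of 1021, 1706, 1389 and 1955 CPM compared with 773.9, 1217, 810.6 and 1399 CPM. All 4 EMT6 tumours were higher in p27K high cells, with overlapping ranges and a rise of 0.54 ± 0.06 (edgeR adjusted p = 7.51e-05). In 4T07 the values were 1.58, 8.39, 18.7 and 14.2 CPM against 12.6, 6.75, 37.7 and 24.4 CPM. Again tumour 2 went the other way, and the change was -1.05 ± 0.44 with it (edgeR adjusted p = 0.0877) and -1.38 without it (edgeR adjusted p = 0.00222).

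The chains of collagen V, which sets fibril diameter, parted from each other. Col5a2 (chromosome 1, 45374321 to 45503282, minus strand) lies tail to tail with Col3a1, 24614 bases away. In D2A1 it was at 0.200, 0.611, 0.308 and 0.494 CPM in p27K high cells, from 2 to 10 counts a library. The p27K negative libraries held 37.8, 19.1, 33.7 and 22.5 CPM, from 41 to 352 counts. The gates were wide apart in every tumour, and the change of -5.97 ± 0.34 was the largest of any collagen gene tested in D2A1 (edgeR adjusted p = 2.26e-08). EMT6 levels were 2.37, 1.25, 0.797 and 1.80 CPM against 10.8, 1.87, 2.70 and 3.97 CPM. Each EMT6 tumour was lower in its p27K high library, with tumour 0 highest in both gates, and the change was -1.51 ± 0.26 (edgeR adjusted p = 0.00111). In 4T07, levels of 0.255, 0.972, 2.19 and 1.49 CPM stood against 1.37, 0.890, 5.76 and 4.55 CPM. The 4T07 libraries overlapped, and the change of -1.32 ± 0.39 (edgeR adjusted p = 0.0281) was not called when tumour 1, 3 or 4 was left out (edgeR adjusted p of 0.111, 0.106 and 0.118).

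Col5a1 (chromosome 2, 27886425 to 28039514, plus strand) rose in D2A1 and EMT6, where its partner fell, but was not called in 4T07. The D2A1 libraries held 3314, 3037, 2674 and 3472 CPM in the p27K high gate and 1418, 1419, 1387 and 1767 CPM in the p27K negative gate. The gates were apart, and the change was 1.06 ± 0.11 (edgeR adjusted p = 1.27e-05). EMT6 levels were 367.7, 506.4, 408.9 and 532.8 CPM against 244.9, 390.1, 264.5 and 386.7 CPM. All 4 EMT6 tumours rose with overlapping ranges, by 0.51 ± 0.05 (edgeR adjusted p = 3.93e-05). The 4T07 values of 296.2, 193.1, 244.3 and 276.6 CPM lay among those of the p27K negative gate, 279.8, 278.8, 182.8 and 218.0 CPM. The 4T07 change was 0.08 ± 0.15 (edgeR adjusted p = 0.699), while without tumour 2 it was 0.28 (edgeR adjusted p = 0.00566). Per kilobase of exon, Col5a1 was 5612 to 18700 times the level of Col5a2 in D2A1 p27K high libraries and 42.4 to 88.8 times in p27K negative ones.

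Other fibrillar genes moved less or were scarce. Col27a1 (chromosome 4, 63214004 to 63334991, plus strand), a fibrillar collagen of cartilage, was at 52.9, 34.9, 46.3 and 20.2 CPM in D2A1 p27K high cells and 25.2, 23.8, 24.8 and 18.1 CPM in p27K negative cells. Every D2A1 tumour was higher in its p27K high library, tumour 4 by the least, and the change was 0.61 ± 0.17 (edgeR adjusted p = 0.0148), or 0.50 without tumour 1 (edgeR adjusted p = 0.0992). In EMT6 it was at 0.736 to 1.32 CPM in the p27K high gate and 0.586 to 1.23 CPM in the p27K negative gate. In 4T07 it had 0 counts in the 4 p27K high libraries and 2 to 6 in the others. Col11a2, which encodes a minor fibril chain, rose in 4T07 (1.16 ± 0.17, edgeR adjusted p = 0.00172) and EMT6 (0.85 ± 0.18, edgeR adjusted p = 0.00311), and its D2A1 change of 1.03 ± 0.37 did not pass (edgeR adjusted p = 0.0534). Col5a3 had changes of -0.02, -0.29 and 0.03 in 4T07, D2A1 and EMT6, none of them called. Col2a1 and Col24a1 were tested in 4T07 alone and not called, and Col11a1 passed the filter in no line. By class, 1 of 9 tested fibrillar members rose and 1 fell in 4T07 (11.1% each, background 22.1% and 23.6%). These 4T07 shares are below the background and are no result about the class. In D2A1, 2 of 8 rose (25%, background 14.9%) and 4 fell (50%, background 14.7%). In EMT6, 5 of 8 rose (62.5%, background 24.1%) and 1 fell (12.5%, background 25.1%).

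**Figure D2:**
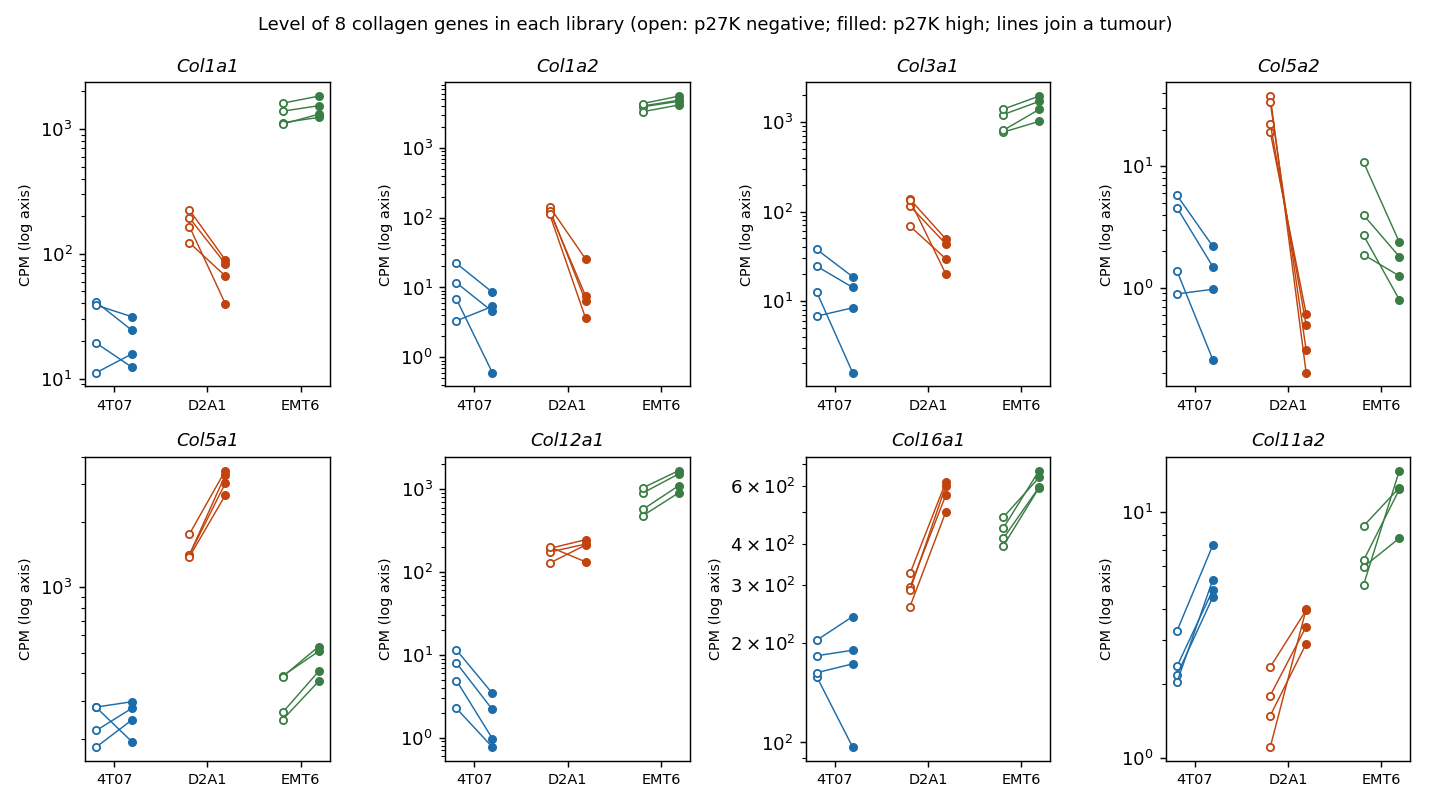
Level of 8 fibrillar and FACIT genes in each library (y axis, CPM on a log axis; open points are p27K negative and filled points p27K high libraries, and a line joins the 2 libraries of a tumour). In D2A1 the lines of Col1a1, Col1a2, Col3a1 and Col5a2 slope down and those of Col5a1 and Col16a1 slope up, while in EMT6 the lines of Col1a2 and Col3a1 slope up.

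The marker lists of other cell types did not all move one way in D2A1. The summed pericyte and endothelial markers were lower in p27K high cells, as were Col1a1, Col1a2, Col3a1 and Col5a2. The fibroblast list had a higher sum, but its members went both ways. Of 13 fibroblast markers 11 were tested in D2A1, of which 4 rose (36.4%, background 14.9%) and 4 fell (36.4%, background 14.7%). Their summed level was 965.6 to 1160 CPM in p27K high libraries and 555.7 to 677.4 CPM in p27K negative ones. Those that fell included Thy1 (-5.00), Pdpn (-3.92) and Cd34 (-3.05), and those that rose included Pdgfra (1.07) and Pdgfrb (1.14). Most of the sums was Pdgfra (means of 523.1 and 247.9 CPM) and Pdgfrb (312.3 and 141.4 CPM), so the higher sum reflects these genes. The 9 pericyte and smooth muscle markers summed to 10.5 to 15.5 CPM against 27.4 to 34.2 CPM, and 2 of 3 tested fell (66.7%, background 14.7%). The 8 endothelial markers summed to 0.856 to 6.26 CPM against 10.5 to 28.9 CPM, and both tested fell (100%, background 14.7%). The 9 macrophage and blood markers summed to 8.61 to 23.8 CPM against 15.5 to 48.5 CPM, and the changes of the 5 tested, from -1.39 to -0.41, did not pass (edgeR adjusted p of 0.079 or more). Epithelial markers summed to 92.5 to 202.9 CPM against 62.5 to 503.6 CPM, with overlapping gates and Krt5 at 0 in the p27K high libraries. The part of these cell types in the fall of Col1a1, Col1a2, Col3a1 and Col5a2 was not tested. In EMT6, fibroblast markers summed to 679.3 to 786.7 CPM in p27K high libraries against 473.6 to 569.5 CPM. Of 8 tested, 5 rose (62.5%, background 24.1%) and 1 fell (12.5%, background 25.1%). Macrophage and blood markers there summed to 30.97 to 41.89 CPM against 21.25 to 28.36 CPM. Of 4 tested, 2 rose (50%, background 24.1%). These were Csf1r (means of 11.4 and 7.02 CPM) and Cd68 (17.6 and 9.59 CPM), which filled most of the sums. C1qa (-1.185) and Lyz2 (-0.31) did not pass (edgeR adjusted p of 0.0657 and 0.11). The EMT6 sums of the pericyte and smooth muscle, endothelial and epithelial lists overlapped between the gates. Their part in the EMT6 collagen changes was not tested either. In bulk libraries, fewer cells of a type and less RNA per cell cannot be told apart.

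Among FACIT genes, Col12a1 fell in 4T07 and rose in EMT6. Col12a1 (chromosome 9, 79598991 to 79718831, minus strand) encodes a FACIT of collagen I fibrils. In EMT6 it was at 903.6, 1529, 1103 and 1676 CPM in p27K high libraries and 479.8, 901.5, 570.4 and 1038 CPM in p27K negative ones. Every EMT6 tumour was higher in p27K high cells, and the rise was 0.83 ± 0.05 (edgeR adjusted p = 1.44e-06). In 4T07 it was scarce, at 0.975, 0.770, 3.43 and 2.19 CPM against 4.88, 2.25, 11.4 and 7.96 CPM. All 4T07 tumours were lower in p27K high cells, by -1.88 ± 0.20 (edgeR adjusted p = 0.000328). D2A1 values of 245.0, 217.2, 132.5 and 211.6 CPM lay among the 192.6, 174.1, 200.4 and 128.1 CPM of the p27K negative gate. The D2A1 change was 0.21 ± 0.17 (edgeR adjusted p = 0.394), and without tumour 3, the one in which it was lower, it was 0.48 (edgeR adjusted p = 0.00112).

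Col16a1 (chromosome 4, 130047840 to 130099283, plus strand), another fibril-associated collagen, rose in D2A1 and EMT6. The D2A1 libraries held 562.4, 500.3, 600.4 and 616.1 CPM against 295.5, 258.1, 289.3 and 325.1 CPM. In EMT6 there were 635.5, 593.8, 592.0 and 666.7 CPM against 481.0, 415.2, 393.7 and 445.9 CPM. The gates did not overlap in either line, and the changes were 0.96 ± 0.11 (edgeR adjusted p = 2.11e-05) and 0.52 ± 0.05 (edgeR adjusted p = 1.67e-05). In 4T07, 190.3, 96.9, 240.7 and 173.0 CPM compared with 183.1, 158.2, 204.1 and 162.7 CPM. Tumour 2 was the one with the lower p27K high level, and the 4T07 change was -0.08 ± 0.15 with it and 0.13 without it (edgeR adjusted p of 0.705 and 0.0815). Col20a1 rose in 4T07 (1.66 ± 0.15, edgeR adjusted p = 0.000165) and EMT6 (1.97 ± 0.22, edgeR adjusted p = 8.87e-05) from levels of at most 3.60 and 1.64 CPM in the p27K negative libraries. Col9a2 rose in 4T07 (2.28 ± 0.62), where its p27K high mean was 1.03 CPM, and Col9a1, Col9a3 and Col14a1 were not called in any line that tested them. Col19a1 had no count in any library, and Col22a1 passed the filter in no line.

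The basement membrane genes fell in 4T07 for the main chains and rose in every line for Col4a5. Col4a1 and Col4a2 encode the ubiquitous chains of collagen IV and lie head to head on chromosome 8 with an overlap of 22 bases (11198423 to 11312826, minus strand, and 11312805 to 11449287, plus strand). Col4a1 stood at 85.8, 64.9, 118.9 and 110.1 CPM in 4T07 p27K high cells and 230.7, 198.0, 149.4 and 197.7 CPM in p27K negative cells. Col4a2 stood at 56.9, 49.5, 74.3 and 75.8 CPM against 162.5, 149.7, 101.4 and 140.2 CPM. Neither gene overlapped between the 4T07 gates, and the changes were -1.05 ± 0.20 and -1.11 ± 0.19 (edgeR adjusted p of 0.00481 and 0.00295). Per kilobase of exon their ratio held between 1.16 and 1.42 in the 4T07 libraries. Their counts near the shared start cannot be told apart without strand.

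In D2A1 the collagen IV pair showed no call. Col4a1 was at 144.1, 108.3, 117.5 and 111.4 CPM against 165.2, 66.3, 92.8 and 96.4 CPM, and Col4a2 at 195.3, 144.9, 147.4 and 155.4 CPM against 185.2, 93.8, 140.8 and 130.5 CPM. Tumour 1 had the highest level of both genes in both gates. The changes were 0.26 ± 0.14 and 0.25 ± 0.12 (edgeR adjusted p of 0.195 and 0.145), and without tumour 3 that of Col4a2 was 0.30 (edgeR adjusted p = 0.028). EMT6 made little of either gene: Col4a1 was at 7.89, 0.662, 0.947 and 1.10 CPM against 4.97, 1.41, 1.38 and 3.33 CPM, and Col4a2 at 6.97, 1.25, 0.349 and 1.51 CPM against 2.40, 0.879, 0.633 and 1.93 CPM. Tumour 0 was far above the other EMT6 p27K high libraries for both. The changes were -0.42 ± 0.35 and 0.47 ± 0.37 with it (edgeR adjusted p of 0.361 and 0.329), and -1.12 and -0.18 without it (edgeR adjusted p of 0.00574 and 0.688).

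Col4a5 (chromosome X, 141475385 to 141689234, plus strand), a chain of a more restricted collagen IV network, rose in each line. In 4T07 it was at 381.1, 258.3, 354.7 and 350.5 CPM against 207.8, 185.3, 159.2 and 136.0 CPM. All 4T07 p27K high libraries were above all p27K negative ones, by 0.97 ± 0.14 (edgeR adjusted p = 0.00146). The rises were 0.60 ± 0.15 in D2A1 (edgeR adjusted p = 0.0104) and 0.69 ± 0.07 in EMT6 (edgeR adjusted p = 3.67e-05), higher in 4 of 4 tumours of each. Col4a6, its head to head neighbour, changed by 0.57 ± 0.22 in 4T07 (edgeR adjusted p = 0.07), and Col4a3 and Col4a4 passed the filter in no line. Marker lists went in both directions in 4T07. Those of blood and vessel cells were lower in p27K high cells, as were Col4a1 and Col4a2. The summed fibroblast markers were higher, but members of that list went both ways. All 9 macrophage and blood markers fell there (100%, background 23.6%), with a summed level of 72.6 to 97.3 CPM against 381.9 to 904.3 CPM. Of 5 tested endothelial markers 4 fell (80%, background 23.6%). The endothelial list summed to 2.84 to 5.42 CPM against 9.78 to 14.4 CPM, with Cldn5 at 0 in the p27K high libraries. The fibroblast markers summed to 1551 to 2387 CPM in 4T07 p27K high libraries against 567.4 to 835.5 CPM. Most of that was Dcn (means of 1139 and 264.6 CPM) and Pdgfra (701.6 and 313.4 CPM). Of 10 fibroblast markers tested, 5 rose (50%, background 22.1%) and 2 fell (20%, background 23.6%), namely Pdpn (-2.135) and Thy1 (-1.49). The pericyte and smooth muscle markers summed to 19.6 to 29.8 CPM against 33.2 to 35.6 CPM. Epithelial markers summed to 433.3 to 572 CPM against 566.1 to 686.8 CPM, with overlapping gates. The part of these cell types in the fall of Col4a1 and Col4a2 was not tested.

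Beaded filament genes rose in D2A1 and EMT6. Col6a1 (chromosome 10, 76708792 to 76726168, minus strand) and Col6a2 (76595762 to 76623630, minus strand), neighbours on 1 strand, encode chains of collagen VI. D2A1 libraries held 452.4, 309.2, 463.3 and 223.2 CPM of Col6a1 against 233.3, 155.4, 221.9 and 109.1 CPM, and 181.6, 102.8, 204.0 and 77.6 CPM of Col6a2 against 100.7, 58.3, 99.4 and 46.4 CPM. Both genes roughly doubled in each tumour, with changes of 1.01 ± 0.11 and 0.86 ± 0.12 (edgeR adjusted p of 1.34e-05 and 9.79e-05). In EMT6, Col6a1 was at 589.2, 690.0, 622.4 and 827.3 CPM against 354.3, 502.4, 404.4 and 570.7 CPM, and Col6a2 at 290.4, 405.0, 383.8 and 555.3 CPM against 236.0, 351.3, 256.6 and 415.2 CPM. All 4 EMT6 tumours rose for both, by 0.59 ± 0.05 and 0.38 ± 0.06 (edgeR adjusted p of 1.61e-05 and 0.000783). In 4T07 the values for Col6a1 were 375.4, 278.7, 481.7 and 403.9 CPM against 297.0, 291.4, 320.4 and 271.0 CPM, and for Col6a2 84.7, 69.5, 126.6 and 109.2 CPM against 67.8, 78.1, 93.6 and 77.4 CPM. Tumour 2 was lower and the other 3 were higher in p27K high cells for both genes. The Col6a1 change of 0.36 ± 0.12 passed (edgeR adjusted p = 0.0413), but not with total count scaling (0.206) or without tumour 1, 3 or 4 (0.13, 0.165 and 0.166). For Col6a2 it was 0.27 ± 0.12 (edgeR adjusted p = 0.1), and 0.42 without tumour 2 (edgeR adjusted p = 0.000185).

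The other collagen VI chains did not follow as a set. Col6a3, which completes the classical collagen VI molecule, changed by 0.14 ± 0.10, 0.18 ± 0.12 and 0.69 ± 0.94 in 4T07, D2A1 and EMT6 and was not called. In EMT6 it was at 72.9 CPM in the p27K high library of tumour 0 and at 0.640 to 8.88 CPM in the other 7 libraries. Per kilobase of exon, Col6a1 was 22.1 to 3533 times as abundant as Col6a3 in EMT6 p27K high libraries, against 2.96 to 4.07 times in 4T07 and 0.708 to 1.07 times in D2A1. Col6a5 was abundant in D2A1, with means of 399.8 ± 55.6 CPM in the p27K high gate and 301.6 ± 23.7 CPM in the p27K negative gate (SD, n = 4), against 0.58 CPM at most in the other lines' gates. It rose in D2A1 by 0.40 ± 0.13 (edgeR adjusted p = 0.0304). Col6a4 fell in 4T07 by -0.68 ± 0.21 at means of 1.83 and 2.96 CPM, and Col6a6 was tested in D2A1 alone and not called.

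**Figure D3:**
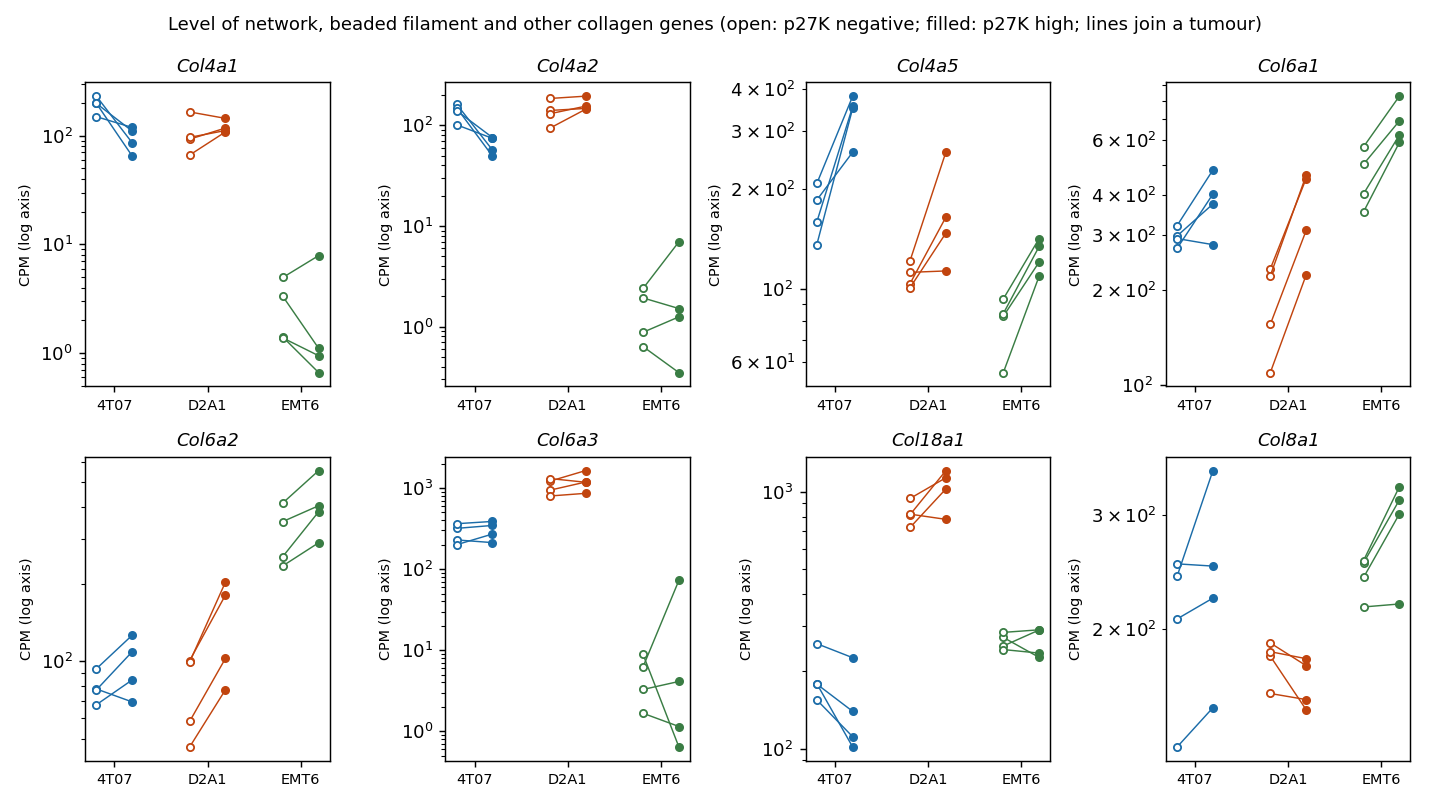
Level of 8 collagen genes of the basement membrane, beaded filament, multiplexin and short-chain network classes in each library (y axis, CPM on a log axis; open points are p27K negative and filled points p27K high libraries, joined within a tumour). Col4a1 and Col4a2 slope down in 4T07, Col6a1 and Col6a2 slope up in each D2A1 and EMT6 tumour, and the Col6a3 library at 72.9 CPM in EMT6 stands alone.

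Multiplexins, heparan sulphate or chondroitin sulphate bearing collagens of basement membrane zones, differed between lines. Col15a1 (chromosome 4, 47208161 to 47313167, plus strand) was at 0.550, 0.428, 0.308 and 0.934 CPM in D2A1 p27K high cells and 4.44, 2.80, 7.18 and 5.88 CPM in p27K negative cells. The gates were apart, from 2 to 17 counts a library against 6 to 92, and the change was -3.01 ± 0.43 (edgeR adjusted p = 0.000161). In 4T07 it was at 2.02, 1.05, 1.80 and 1.33 CPM against 1.77, 2.17, 2.39 and 2.61 CPM, an overlapping difference of -0.54 ± 0.29 (edgeR adjusted p = 0.17), and it was not tested in EMT6. Col18a1 (chromosome 10, 77052178 to 77166548, minus strand) encodes the precursor of endostatin. It was at 139.6, 101.4, 225.8 and 111.2 CPM in 4T07 p27K high cells and 178.2, 178.8, 256.0 and 154.7 CPM in p27K negative cells. All 4 tumours were lower in p27K high cells, by -0.46 ± 0.11 (edgeR adjusted p = 0.0128), or 0.0503 without tumour 1. D2A1 libraries held 1208, 1025, 1133 and 780.1 CPM against 813.9, 725.3, 940.8 and 817.3 CPM, and tumour 4 went against the other 3. That change was 0.32 ± 0.13 (edgeR adjusted p = 0.081), or 0.43 without tumour 4 and 0.32 without tumour 3 (edgeR adjusted p of 0.0417 and 0.0234). EMT6 values of 226.4, 289.5, 289.9 and 235.3 CPM and of 270.8, 250.8, 283.3 and 242.9 CPM were intermixed, with a change of -0.02 ± 0.07 (edgeR adjusted p = 0.868).

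No transmembrane or short-chain collagen was called in more than 1 line. Col23a1 (chromosome 11, 51289920 to 51583918, plus strand), a transmembrane collagen, was at 31.0, 34.8, 42.1 and 36.6 CPM in D2A1 p27K high cells and 45.9, 45.3, 48.0 and 67.3 CPM in p27K negative cells, against 0.351 CPM at most in any library of the other lines. The D2A1 gates did not overlap, and the change was -0.53 ± 0.14 (edgeR adjusted p = 0.0136), with adjusted p of 0.0697 and 0.123 without tumour 1 or 4. Col17a1, the hemidesmosome collagen, rose in D2A1 by 1.82 ± 0.58 (edgeR adjusted p = 0.0313) from a mean of 0.457 to 2.27 CPM, while its changes of 0.55 ± 0.24 in 4T07 and 0.48 ± 0.35 in EMT6 did not pass (edgeR adjusted p of 0.0993 and 0.292). Col8a1 (chromosome 16, 57624258 to 57754737, minus strand), a short-chain network collagen of vessel walls and cornea, was at 218.5, 300.6, 315.9 and 331.1 CPM in EMT6 p27K high cells and 216.2, 240.0, 252.7 and 254.8 CPM in p27K negative cells. Each EMT6 tumour rose, tumour 0 by the least, and the change was 0.26 ± 0.06 (edgeR adjusted p = 0.00665). In D2A1 Col8a1 was at 175.6, 155.7, 150.2 and 180.0 CPM against 190.3, 159.1, 181.6 and 184.5 CPM, and in 4T07 at 249.9, 350.6, 151.3 and 223.1 CPM against 251.9, 241.0, 131.6 and 207.2 CPM. Gates overlapped in both lines, and neither change passed (-0.11 ± 0.11 and 0.21 ± 0.10, edgeR adjusted p of 0.487 and 0.133). Col10a1, the collagen of hypertrophic cartilage, rose in D2A1 (2.07 ± 0.51, edgeR adjusted p = 0.00821) to a mean of 3.02 CPM, and Col8a2 rose in 4T07 (1.27 ± 0.30, edgeR adjusted p = 0.012) to 2.17 CPM. The D2A1 p27K negative libraries of tumours 1 to 4 held 2, 1, 2 and 2 counts of Col10a1 and 1, 0, 0 and 17 of Col17a1. The sizes of these D2A1 rises thus rest on few counts. In EMT6 the Col8a2 change was -0.23 ± 0.17 (edgeR adjusted p = 0.282).

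Col7a1 (chromosome 9, 108953586 to 108984875, plus strand), which forms the anchoring fibrils under epithelia, rose in EMT6. Its EMT6 levels were 251.9, 272.9, 220.7 and 301.0 CPM against 193.0, 260.4, 187.5 and 257.5 CPM. All 4 tumours were higher in p27K high cells with overlapping ranges, by 0.23 ± 0.06 (edgeR adjusted p = 0.00731). D2A1 levels of 78.6, 75.9, 89.6 and 49.3 CPM compared with 105.9, 79.8, 84.5 and 54.9 CPM, and 4T07 levels of 214.9, 108.5, 244.1 and 129.8 CPM with 178.4, 165.5, 182.8 and 119.1 CPM. These overlapped, with changes of -0.14 ± 0.12 and 0.05 ± 0.16 (edgeR adjusted p of 0.419 and 0.807), and without tumour 2 the 4T07 change was 0.27 (edgeR adjusted p = 0.00467). Col13a1, Col25a1, Col26a1 and Col28a1 passed the filter in no line. With Col4a3, Col4a4, Col11a1, Col19a1 and Col22a1 they made up the 9 members tested nowhere, and the highest mean of any member where it was not tested was 1.49 CPM, for Col24a1 in EMT6 p27K high cells.

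The summed collagen level showed which classes filled it. It was 1886 to 2817 CPM in 4T07 p27K high libraries and 2043 to 2472 CPM in p27K negative ones, and 10860 to 14720 CPM against 8053 to 11200 CPM in EMT6, and these ranges overlapped in both lines. Within tumours, the sum was higher in the p27K high library of 3 of 4 tumours in 4T07 and of all 4 in EMT6, with a ratio of the means of 1.05 and 1.31. In D2A1 it was 7620 to 9083 CPM against 5003 to 6050 CPM, with no overlap, higher in all 4 tumours and with a ratio of 1.42. The D2A1 sum was thus higher in p27K high cells although Col1a1, Col1a2, Col3a1 and Col5a2 were lower. Most of that rise was Col5a1, whose mean went from 1498 to 3124 CPM while the mean sum went from 5618 to 8002 CPM. Per kilobase of exon, Col5a1 led in D2A1, at 368.0 ± 41.2 CPM per kilobase in the p27K high gate and 176.4 ± 21.2 in the p27K negative gate (SD, n = 4), followed by Col18a1 (147.6 ± 26.6 and 117.4 ± 12.6). In EMT6, Col1a2 led (383.6 ± 46.1 and 311.4 ± 34.0), ahead of Col1a1 (225.5 ± 40.7 and 198.8 ± 37.1), and the SDs of these did not overlap within a gate. In 4T07, Col6a1 led at 87.9 ± 19.1 and 67.4 ± 4.64 CPM per kilobase, followed in the p27K high gate by Col4a5 (50.03 ± 7.99) and in the p27K negative gate by Col5a1 (28.3 ± 5.63), Col18a1 (27.3 ± 6.29) and Col8a1 (26.5 ± 6.94), which did not differ beyond their SDs.

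**Figure D4:**
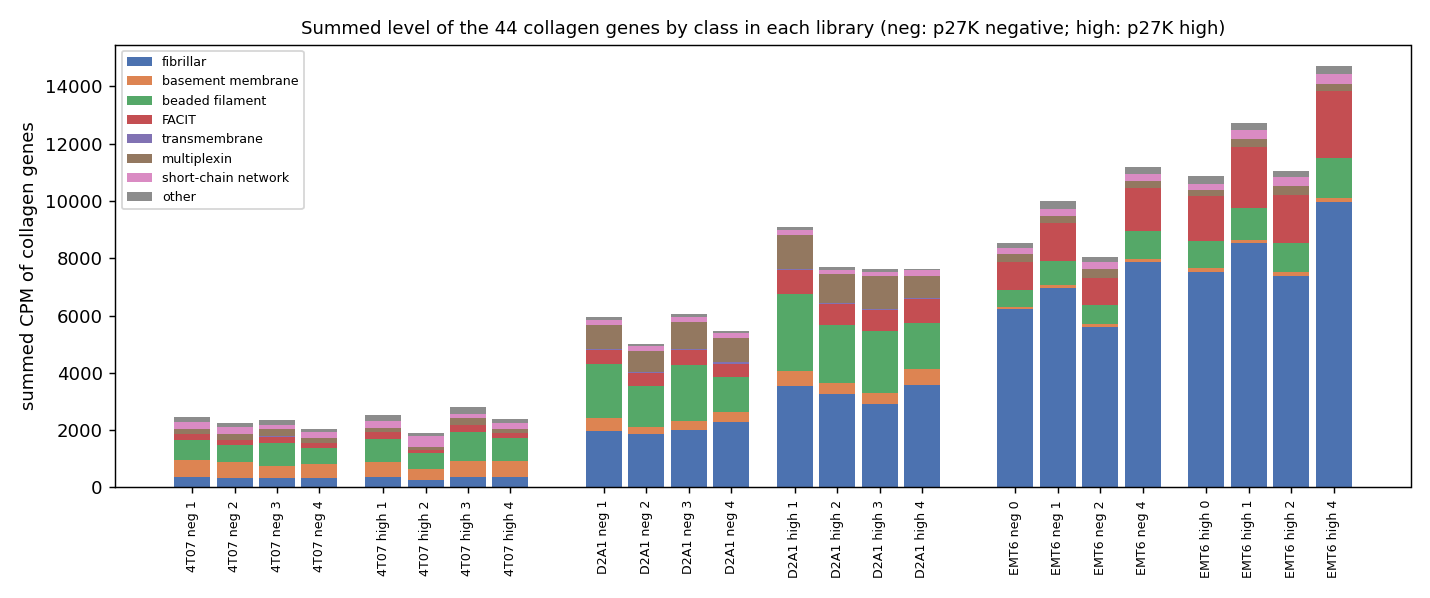
Summed CPM of the 44 collagen genes in each library (y axis), stacked by class, for the p27K negative and p27K high libraries of each line (x axis, line, gate and tumour number). Fibrillar genes fill most of each EMT6 bar, and the D2A1 p27K high bars, 7620 to 9083 CPM, are all taller than the p27K negative ones, 5003 to 6050 CPM.

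Whether the gate difference itself differed between lines was tested in a joint fit of all 24 libraries, in which 35 members were tested. The change was unequal for 17 of them (48.6%), against 24.5% of all genes tested. D2A1 differed from 4T07 for 14 members (40%, background 23.3%), D2A1 from EMT6 for 4 (11.4%, background 3.45%), and 4T07 from EMT6 for 8 (22.9%, background 15%). These contrasts share libraries in pairs, and D2A1 has the least depth. The 4 members with a D2A1 change different from that of EMT6 were all fibrillar: Col1a2 (difference -4.11 ± 0.54, edgeR adjusted p = 0.00036), Col5a2 (-4.44 ± 0.58, edgeR adjusted p = 0.00036), Col1a1 (-1.52 ± 0.24, edgeR adjusted p = 0.00185) and Col3a1 (-2.23 ± 0.43, edgeR adjusted p = 0.00801). With tumour 4, the deepest, as the only D2A1 tumour, so that the spread comes from the other lines, 2 of the 4 were called, and Col5a2 (-3.94) and Col3a1 (-3.22) had edgeR adjusted p of 0.073 and 0.0754. Without 4T07 tumour 2, 8 members differed between D2A1 and EMT6.

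Against 4T07, the D2A1 change was lower for Col5a2 (-4.63 ± 0.57), Col1a2 (-2.58 ± 0.58), Col15a1 (-2.45 ± 0.48) and Col1a1 (-1.04 ± 0.25), with edgeR adjusted p of 4.59e-05, 0.00525, 0.00204 and 0.00704. The Col15a1 difference was not called after D2A1 was thinned to equal depth (-2.13, edgeR adjusted p = 0.0698) or with its deepest tumour alone (-2.08, edgeR adjusted p = 0.084). For Col3a1 that difference was -0.69 ± 0.46 (edgeR adjusted p = 0.293). It was higher in D2A1 for Col12a1 (2.13 ± 0.25), Col4a2 (1.39 ± 0.27), Col4a1 (1.34 ± 0.30), Col16a1 (1.07 ± 0.17), Col5a1 (1.01 ± 0.18), Col18a1 (0.80 ± 0.17), Col6a1 (0.68 ± 0.15) and Col6a2 (0.61 ± 0.16), with edgeR adjusted p from 3.16e-05 to 0.00995. Col27a1 and Col6a6 were called as well, but the 4T07 p27K high libraries held 0 counts of Col27a1 and a mean of 0.04 CPM of Col6a6, so no size is given. With tumour 4 as the only D2A1 tumour, which is then assumed to vary like the tumours of the other lines, 6 members differed from 4T07. The differences no longer called were 1.39 for Col4a2, 1.29 for Col4a1, 1.03 for Col16a1, 0.92 for Col5a1, 0.70 for Col6a1, 0.50 for Col6a2 and 0.42 for Col18a1, beside Col15a1 (edgeR adjusted p of 0.0686 to 0.336). Without the tumour block, Col1a1, Col1a2, Col4a1, Col4a2, Col6a1, Col6a2, Col15a1 and Col18a1 were not called (edgeR adjusted p of 0.0563 to 0.291).

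Not every contrast set D2A1 apart. The change of Col12a1 differed between 4T07 and EMT6 by -2.68 ± 0.24 (edgeR adjusted p = 4.03e-06), while that between D2A1 and EMT6 was -0.56 ± 0.21 (edgeR adjusted p = 0.177). Col3a1 (-1.54 ± 0.43, edgeR adjusted p = 0.0245), Col16a1 (-0.58 ± 0.17, edgeR adjusted p = 0.0299) and Col4a2 (-1.69 ± 0.42, edgeR adjusted p = 0.0125) were also lower in 4T07 than in EMT6, and the other 4 called were Col2a1, Col6a4, Col8a2 and Col27a1, all scarce in at least 1 of the lines. The Col4a2 difference was -0.91 without EMT6 tumour 0 (edgeR adjusted p = 0.226). That of Col3a1 was not called without EMT6 tumour 1 or 2 (edgeR adjusted p of 0.0549 and 0.0679), nor that of Col16a1 without tumour 1, 2 or 4 (0.0727, 0.0808 and 0.0735). Col8a1, Col7a1 and Col23a1 were not called as unequal between the lines.

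Genes that modify, secrete, process and bind collagen were taken as 4 lists with 45 members. Of 39 tested in 4T07, 8 rose (20.5%, background 22.1%) and 7 fell (17.9%, background 23.6%). Of 40 in D2A1, 12 rose (30%, background 14.9%) and 5 fell (12.5%, background 14.7%), and of 41 in EMT6, 16 rose (39%, background 24.1%) and 7 fell (17.1%, background 25.1%). For the 4 lists together, the 4T07 shares, and the shares that fell in D2A1 and EMT6, were thus no higher than over all genes. Modification and folding enzymes rose in part in each line. P4ha1, P4ha2 and P4ha3 encode catalytic subunits of prolyl 4-hydroxylase, which stabilises the triple helix. P4ha2 was at 74.8 to 108.3 CPM in 4T07 p27K high libraries against 28.1 to 38.9 CPM, at 199.5 to 228.6 against 80.7 to 87.3 CPM in D2A1, and at 112.5 to 135.6 against 57.1 to 80.2 CPM in EMT6. It was higher in every p27K high library than in every p27K negative one of its line, by 1.46 ± 0.08, 1.38 ± 0.11 and 0.84 ± 0.06 (edgeR adjusted p of 1.41e-05, 8.01e-07 and 2.28e-06). P4ha1 rose by 1.25 ± 0.08, 0.81 ± 0.11 and 0.54 ± 0.04 in the same order. P4ha3 went the other way in 4T07 (-2.15 ± 0.44, edgeR adjusted p = 0.00619), at means of 0.459 and 1.88 CPM. Its changes of -0.45 in D2A1 and 0.13 in EMT6 were not called. Of this list 6 of 17 rose (35.3%) and 2 fell (11.8%) in 4T07, and 6 of 16 rose (37.5%) in D2A1. In EMT6, 8 of 17 rose (47.1%) and 2 fell (11.8%). The backgrounds are those given above for each line.

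Genes that trim and cross-link collagen were called in both directions in D2A1. Of 10 tested, 5 fell (50%, background 14.7%) and 2 rose (20%, background 14.9%) there. In 4T07, 3 of 9 fell (33.3%, background 23.6%). In EMT6, 1 of 10 fell (10%, background 25.1%) and 3 rose (30%, background 24.1%). After D2A1 counts were thinned to equal depth, or with a stricter filter, 2 of the pathway genes fell in D2A1. Lox encodes lysyl oxidase, which cross-links fibrils outside the cell. In D2A1 it was at 0.400, 2.38, 0.308 and 0.275 CPM in p27K high cells and 8.15, 5.13, 12.7 and 11.8 CPM in p27K negative cells. The gates were apart, and the change was -3.67 ± 0.59 (edgeR adjusted p = 0.000461). In EMT6, Lox rose by 0.60 ± 0.05 (edgeR adjusted p = 1.87e-05), with Loxl1 at 0.36 ± 0.07 (edgeR adjusted p = 0.00222), and the joint difference of the Lox change between D2A1 and EMT6 was -4.09 ± 0.54 (edgeR adjusted p = 0.00036). Adamts2, whose product removes the amino-terminal propeptide of fibrillar procollagens, had 2 counts in all 4 D2A1 p27K high libraries and 158 in the p27K negative ones. Pooled over the 4 tumours and scaled to library size this was a ratio of 230, with a 95% exact interval of 62.6 to 1920. That interval covers counting error only, and tumour 4 held 110 of the p27K negative counts. The edgeR change within tumours was -7.46 ± 0.71 (edgeR adjusted p = 3.9e-06), and its size rests on the few p27K high counts. Pcolce2, Loxl1 and Loxl2 fell as well. The 2 genes that rose in D2A1 were Bmp1, which encodes the carboxy-terminal propeptidase (0.39 ± 0.11, edgeR adjusted p = 0.0166), and Loxl3, another lysyl oxidase gene (0.69 ± 0.11, edgeR adjusted p = 0.000497). Bmp1 fell in 4T07 by -0.68 ± 0.08 (edgeR adjusted p = 0.000534), as did Adamts14 (-0.68 ± 0.13, edgeR adjusted p = 0.00467). The pericyte and endothelial marker sums given above are lower in the same D2A1 libraries, and their part was not tested.

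Secretion genes changed by small amounts, but in EMT6 a larger share of them fell than of all genes. The smallest p-values of the 7 tested in D2A1 were those of Sec23a and Mia3, with changes of -0.36 ± 0.14 and -0.26 ± 0.11 (edgeR adjusted p of 0.0617 and 0.0969). In 4T07, 1 of 6 rose (16.7%, background 22.1%), Sec23a of the vesicle coat (0.59 ± 0.08, edgeR adjusted p = 0.000968), and Mia2 did not pass (0.33 ± 0.15). In EMT6, 2 of 7 rose (28.6%, background 24.1%) and 4 fell (57.1%, background 25.1%), with changes from -0.215 to 0.185. Creb3l1 rose by 0.18 ± 0.05 and Mia3, a receptor that loads procollagen, changed by -0.22 ± 0.05 (edgeR adjusted p of 0.0124 and 0.0053). The Creb3l1 rise was not called without tumour 1 or 2 (0.0539 and 0.0618).

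Collagen receptors rose in part in D2A1 and EMT6. In D2A1, 4 of 7 rose (57.1%, background 14.9%). They were led by Itga10, an integrin subunit (1.62 ± 0.16, edgeR adjusted p = 5.17e-06), and Ddr1, a receptor kinase for collagen (0.91 ± 0.12, edgeR adjusted p = 9.3e-05). In EMT6, 3 of 7 rose (42.9%, background 24.1%), among them Ddr1 (0.80 ± 0.15, edgeR adjusted p = 0.00176) and Mrc2, an endocytic collagen receptor (1.13 ± 0.25, edgeR adjusted p = 0.00506). In 4T07, 1 of 7 rose (14.3%, background 22.1%), the integrin gene Itgb1 (0.44 ± 0.09, edgeR adjusted p = 0.00713). The 2 that fell (28.6%, background 23.6%) were Itga1 by -1.70 ± 0.38 (edgeR adjusted p = 0.00907, or 0.0541 without tumour 1) and Itga2. These 4T07 shares lie near or below those over all genes and are no result about the receptors. In the joint fit, 25 of 41 members of the 4 lists changed unequally between the lines, a share of 61% beside the background of 24.5%.

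**Figure D5:**
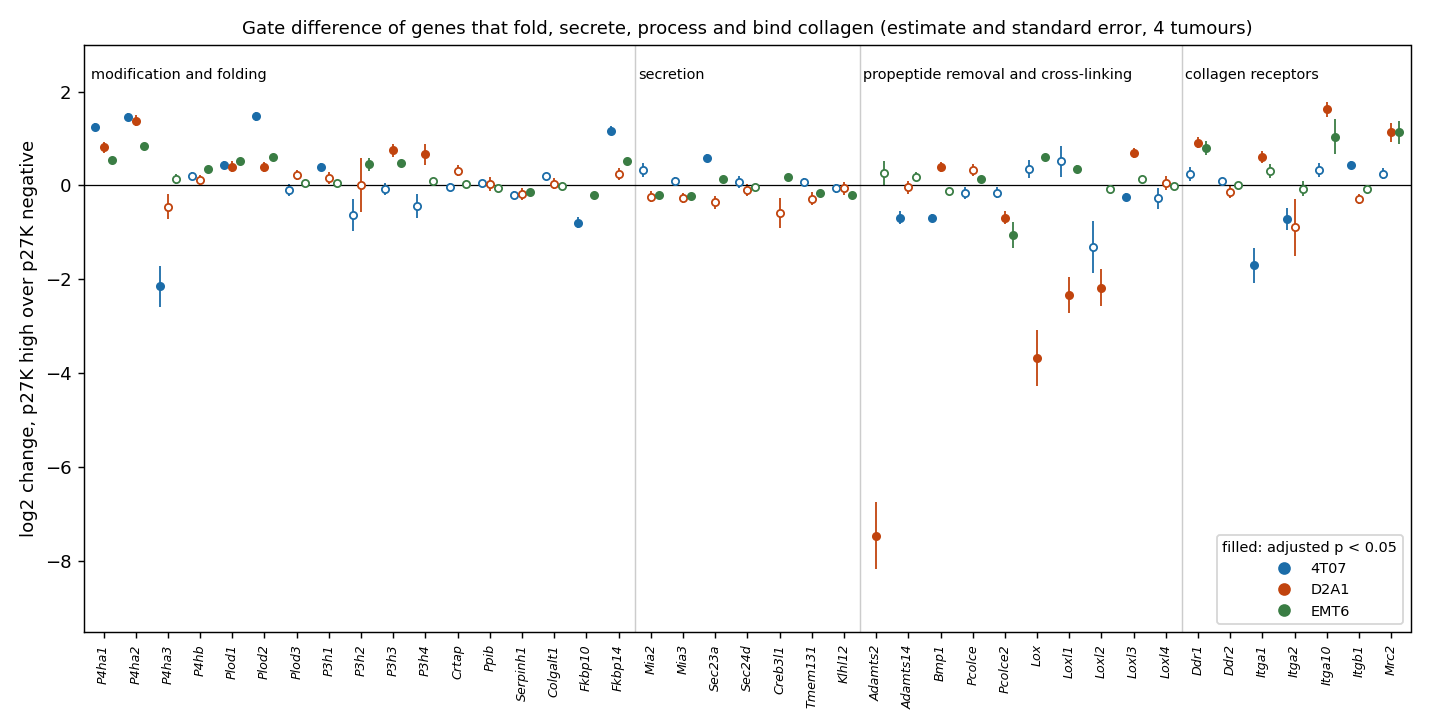
Change between the gates of genes that modify, secrete, process and bind collagen (y axis, log2 of p27K high over p27K negative; points are estimates from 4 tumours, bars are standard errors), by list on the x axis and coloured by line. Filled points passed the test; P4ha1 and P4ha2 lie above 0 in each line, and Lox lies at -3.67 in D2A1 and 0.60 in EMT6.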

How the data were processed

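The 24 libraries are bulk RNA of cells sorted from tumours. The deposited values are raw counts per gene, 1 table for each line, made by GENEWIZ per the labels' protocols. The submitters' processing notes name mm10 and DESeq2; the sources used here do not give the aligner, counter or strand use. The labels pair the gates of a tumour in 4T07 and D2A1, and column numbers pair them in EMT6, whose columns (0, 1, 2 and 4) differ from the titles. Deviations of paired libraries correlated at 0.195 to 0.801 in 4T07, 0.083 to 0.294 in D2A1 and 0.574 to 0.813 in EMT6 over 5000 genes. For 4T07 tumour 4 the value of 0.195 was below its highest correlation with a library of another tumour, 0.359. The correlations thus do not bear out that pair, which rests on the labels. Every other pair correlated more within its tumour than with any other. No 2 libraries of a gate agreed within sampling noise. Entries with a blank name held at most 0.0109% of a library's counts and were left out with a totals entry and 4 date-like names per table. Symbols on several entries were summed.

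Within a line, gates were compared by edgeR 4.0.16 (glmQLFit and glmQLFTest; R 4.3.3, limma 3.58.1) after TMM scaling and the default filter, the tumour being a block, over 12849, 12845 and 13354 genes. The standard error of a change is its size over the square root of F. The joint fit held 12 tumours as blocks and gate-by-line terms over 13578 genes of the 24034 symbols in all tables. A p-value here reflects how the gate difference varied among tumours. Levels per kilobase used merged exons of GENCODE vM21 on GRCm38. Counting by gene cannot tell overlapping genes apart.

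Values in every library are given for the 14 members with the smallest p for unequal change and a mean of at least 5 CPM in a group, and the member of highest mean in a class without one (Col23a1, Col8a1 and Col7a1). Of each pathway list the 2 members with the smallest p per line are named, and any others named were chosen after their values were seen. Col4a5, Col11a2, Col20a1 and other members named by their change alone, and the marker genes named, were chosen after their values were seen. The members and lists were chosen with earlier results of these data known. Alternatives were DESeq2 1.42.0, its size factors, total count scaling, no or a stricter filter, D2A1 thinned to equal depth, no tumour block and leaving out each tumour. D2A1 by its deepest tumour alone was added after seeing the data. Scripts were tested on simulated data.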

Additional observations from a re-analysis of the deposited data

Results flagged for a closer look

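In 3 of 94 groups of 4 libraries checked, 1 library lay far from the others, as chance does in about 1 in 20 groups. The p27K negative library of D2A1 tumour 4 was high for Col5a1 (1767 CPM, gap over range 0.916) and for Col23a1 (67.3 CPM, 0.875), and the p27K high library of EMT6 tumour 0 was high for Col4a1 (7.89 CPM, 0.939).

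The change between gates was unequal in the 3 lines for 14 of the members described in full, by the joint edgeR test. The edgeR adjusted p was 7.55e-06 for Col12a1, 5.45e-05 for Col5a2, 0.000223 for Col1a2, 0.00104 for Col1a1, 0.00114 for Col16a1, 0.00209 for Col4a2 and 0.00234 for Col5a1. It was 0.00376 for Col3a1, 0.00467 for Col15a1, 0.00469 for Col27a1, 0.00786 for Col6a1, 0.0081 for Col18a1, 0.0126 for Col4a1 and 0.0157 for Col6a2. The directions were those given above: Col1a1, Col1a2 and Col3a1 fell in D2A1 and rose in EMT6, and Col12a1 fell in 4T07 and rose in EMT6.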

How the results depend on the processing

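Without the replicate block, fewer members were called: 7 rose in EMT6 (13 with it), 7 were unequal between lines (17), 6 and 2 differed between D2A1 and 4T07 and between D2A1 and EMT6 (14 and 4), and 2 between 4T07 and EMT6 (8). Of the pathway genes, 10 rose and 1 fell in EMT6 (16 and 7) and 2 fell in 4T07 (7). With D2A1 by its deepest tumour alone, whose spread is taken from the other lines, 9 members were unequal, and 6 and 2 differed from 4T07 and EMT6. Members lower in EMT6 numbered 2 without a filter and 0 with the stricter one (1 in the reported fit), and pathway genes lower in D2A1 numbered 2 after thinning and 2 with the stricter filter (5).

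Leaving out a tumour gave 3 to 11, 5 to 13 and 13 to 15 members higher in 4T07, D2A1 and EMT6, and 3 to 9, 5 to 6 and 1 to 3 lower. Unequal members numbered 14 to 18, and 13 to 15 differed between D2A1 and 4T07, 4 to 8 between D2A1 and EMT6 and 4 to 11 between 4T07 and EMT6. Pathway genes higher numbered 7 to 14, 7 to 14 and 12 to 19, and lower 4 to 9, 5 to 8 and 3 to 8. The cause was not tested.

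No called gene reversed: of gene values called in the reported fit, 880 stayed called and 60 did not. The values that reversed had not passed the test. Leaving out a tumour gave -0.185 to 0.128 for Col16a1, -0.034 to 0.281 for Col5a1 and -0.070 to 0.272 for Col7a1 in 4T07, and -0.09 to 0.064 for Col18a1 and -0.177 to 0.806 for Col4a2 in EMT6. Total count scaling gave -0.054 for Col5a1 and -0.080 for Col7a1 in 4T07, and the stricter filter 0.001 for Col18a1 in EMT6. Total count scaling moved the median of all 4T07 genes to -0.14. Depth limits genes of low level most in the D2A1 p27K negative gate.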
